A study of Mus musculus with 4 samples.

Results

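p53 and a core set of its regulators and target genes were examined for PHF2 binding and H3K9me2 in mouse neural stem cells. The set held 9 genes, chosen by name: Trp53, which encodes p53, Mdm2 and Mdm4, which restrain it, and the target genes Cdkn1a, Ccng1, Gadd45a, Btg2, Bbc3 and Bax. They were 9 of the 21755 protein-coding genes on chromosomes 1 to 19 and X in GENCODE M21. A gene was scored by the deposited PHF2 peaks and H3K9me2 regions that overlapped a window of 1 kb on either side of any of its annotated transcript starts, and by those within 20 kb of a start.

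The cells were wild-type C57BL/6J neural stem cells from E12.5 embryos, cultured with EGF (20 ng/ml) and FGF (10 ng/ml), and all samples shared this genotype, strain, stage and medium. Chromatin was precipitated with an antibody to PHF2 (Cell Signaling) in 1 sample and with an antibody to H3K9me2 (Abcam) in 1 sample, and each had 1 input without antibody. With 1 sample per group there was no spread between cultures to measure and no test was made. The lists give positions of called peaks, so the read depth behind each value is unknown. Of 12 genes that mark neural stem cells, 10 had a PHF2 peak at a start (Hes5 and Prom1 had none), against 2 of 8 neuronal, 1 of 5 astrocyte, 0 of 6 oligodendrocyte and 0 of 7 microglial and endothelial marker genes. The share of all protein-coding genes was 29.3%. The lists also differed in CpG content around the starts. The median CpG observed/expected ratio was 0.587 for neural stem cell and 0.361 for neuronal markers. It was 0.202 for astrocyte, 0.206 for oligodendrocyte and 0.217 for microglial and endothelial markers. The part of CpG content in these counts was not tested. A peak is not a measure of expression, so the identity of the cells was not tested by these counts.

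p53 is a transcription factor that is kept low by the ubiquitin ligase MDM2 and its partner MDM4 and that accumulates after DNA damage. It then activates genes whose promoters or first introns carry its binding site, among them genes that stop the cell cycle and genes that start apoptosis, and it also activates Mdm2, which closes a feedback loop. In neural stem and progenitor cells p53 is known to limit self-renewal and to remove damaged cells. PHF2 binds H3K4me3, a modification found at active promoters, through its PHD finger. Its reported substrate is H3K9me2, a histone modification typical of silent chromatin.

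The promoters of Cdkn1a and Bbc3 are shown first because they show a start with PHF2 and starts without it. Cdkn1a has one RefSeq start inside its PHF2 peak and another one upstream of the peak, and Bbc3 had no peak at any start. Sequences run from 250 bases before to 50 bases after a RefSeq start (GRCm38.p6, the mm10 assembly), in the direction of transcription, and capitals mark each CpG dinucleotide.

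Cdkn1a, start in the PHF2 peak, chr17:29093519-29093818, plus strand: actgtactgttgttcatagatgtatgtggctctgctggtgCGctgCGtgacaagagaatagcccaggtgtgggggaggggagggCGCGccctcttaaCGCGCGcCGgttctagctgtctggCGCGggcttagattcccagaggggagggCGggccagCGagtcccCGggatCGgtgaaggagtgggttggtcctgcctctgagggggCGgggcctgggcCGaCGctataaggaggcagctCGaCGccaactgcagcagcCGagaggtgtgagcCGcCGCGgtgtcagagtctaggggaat

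Cdkn1a, upstream start outside the peak, chr17:29090729-29091028, plus strand: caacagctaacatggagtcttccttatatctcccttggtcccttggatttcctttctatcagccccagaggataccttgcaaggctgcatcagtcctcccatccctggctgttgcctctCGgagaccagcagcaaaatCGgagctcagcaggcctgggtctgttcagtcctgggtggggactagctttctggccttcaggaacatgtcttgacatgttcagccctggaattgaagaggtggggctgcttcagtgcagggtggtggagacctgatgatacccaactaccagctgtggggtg

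Bbc3, no PHF2 peak, chr7:16309333-16309632, plus strand: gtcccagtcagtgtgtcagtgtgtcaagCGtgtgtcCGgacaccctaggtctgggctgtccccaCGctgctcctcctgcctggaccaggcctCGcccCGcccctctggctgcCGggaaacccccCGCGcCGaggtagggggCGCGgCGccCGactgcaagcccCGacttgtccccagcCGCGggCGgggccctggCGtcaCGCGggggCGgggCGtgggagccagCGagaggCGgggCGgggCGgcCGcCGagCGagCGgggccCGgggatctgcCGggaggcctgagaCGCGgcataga

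Btg2, in a PHF2 peak, chr1:134079106-134079405, minus strand: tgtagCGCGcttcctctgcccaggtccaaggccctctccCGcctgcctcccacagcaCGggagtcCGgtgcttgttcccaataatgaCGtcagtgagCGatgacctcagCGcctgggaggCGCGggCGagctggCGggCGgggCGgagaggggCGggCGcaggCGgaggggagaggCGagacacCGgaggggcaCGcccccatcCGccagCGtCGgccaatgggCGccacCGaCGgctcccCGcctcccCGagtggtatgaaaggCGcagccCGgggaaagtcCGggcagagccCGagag

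Mdm2, in a PHF2 peak, chr10:117710709-117711008, minus strand: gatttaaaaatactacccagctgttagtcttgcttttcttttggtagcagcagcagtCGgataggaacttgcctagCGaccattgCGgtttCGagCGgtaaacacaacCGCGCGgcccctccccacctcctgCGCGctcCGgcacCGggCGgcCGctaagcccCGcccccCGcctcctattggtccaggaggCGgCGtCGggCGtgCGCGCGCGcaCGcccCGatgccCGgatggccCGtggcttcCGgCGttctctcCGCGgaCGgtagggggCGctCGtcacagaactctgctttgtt

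These 300 bases held 23 CpG dinucleotides at the Cdkn1a start in the peak and 2 at its upstream start. They held 34 at Bbc3, 32 at Btg2 and 35 at Mdm2, where the median of 32619 RefSeq promoters was 7. Bbc3 has 2 more RefSeq promoters, with 30 and 39 CpG dinucleotides, and none of its 3 promoters lay in a peak.

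PHF2 peaks lay at the starts of nearly all of these genes, but most of the peaks were of ordinary rank. A peak was called within 1 kb of a start of 8 of the 9 genes, where the share of all protein-coding genes was 29.3%. Bbc3 was the exception. The 9 genes had a median of 5 annotated starts, against 3 for all protein-coding genes. Each start adds a window in which a peak can fall. With the starts of protein-coding transcripts alone the count was 8 of 9, against 29.1% of all genes. With the 5'-most start alone it was 6 of 9, against 27.2% of all genes, since the peaks of Cdkn1a and Mdm4 lie at internal starts. The highest-scoring peak per gene had a median score of 208 for these 8 genes and of 231 for all 6374 genes with a peak. The score is the authors' deposited value per peak, on a scale that these sources do not name, and it served only to rank peaks within the list, which ran from 100.02 to 3226. Cdkn1a, Btg2 and Gadd45a, all targets that act in cell cycle arrest, lay above that median of 231, and Mdm2, Trp53, Ccng1, Mdm4 and Bax lay below it.

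Among the core genes, Trp53 itself had PHF2 on either side of its 5'-most start. Its main peak had a score of 205.09, rank 3417 of 5992, and a length of 1695 bp (chromosome 11, 69580381 to 69582075). It covered 2 of the 4 annotated starts, at 69580402 and 69580405. It began 22 bp downstream of the 5'-most Trp53 start (69580359) and ran into the first intron, so that 92.0% of its bases were intronic and 7.96% exonic. A second peak of 1077 bp with a score of 139.88 (69578510 to 69579586) ended before that start, 773 bp away. That peak holds a start of Wrap53, a gene on the opposite strand that encodes a telomerase and Cajal body protein and whose nearest start lies 104 bp from a Trp53 start. Only 1.17% of protein-coding genes had 2 or more PHF2 peaks within 1 kb of their starts. Another start of Trp53, at 69588695, lay 6620 bp from a peak.

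Mdm2, the ubiquitin ligase gene, had 1 peak with a score of 211.84, rank 3301, over 1466 bp (chromosome 10, 117709680 to 117711145). It covered 7 of the 8 annotated starts, those between 117710022 and 117710758. The gene is known for an upstream promoter and a p53-responsive promoter in its first intron. Its bases were 55.9% exonic, 17.7% intronic and 26.4% outside the gene. This was the one peak of the 8 whose centre lay upstream of the nearest start, by 120 bp.

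Mdm4, the gene of the MDM2 partner, had a lower score of 155.32, rank 4480, over 1122 bp (chromosome 1, 133024631 to 133025752). The peak covered 7 of 13 starts. The 5'-most start, at 133030561, lay 4809 bp from the peak and had a CpG observed/expected ratio of 0.21 in its window, while the starts in the peak had 0.61 to 0.63. The other 5 starts of Mdm4 lay 5773 to 51918 bp away, and none of the 6 starts outside the peak had PHF2 within 1 kb.

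**Figure D1:**
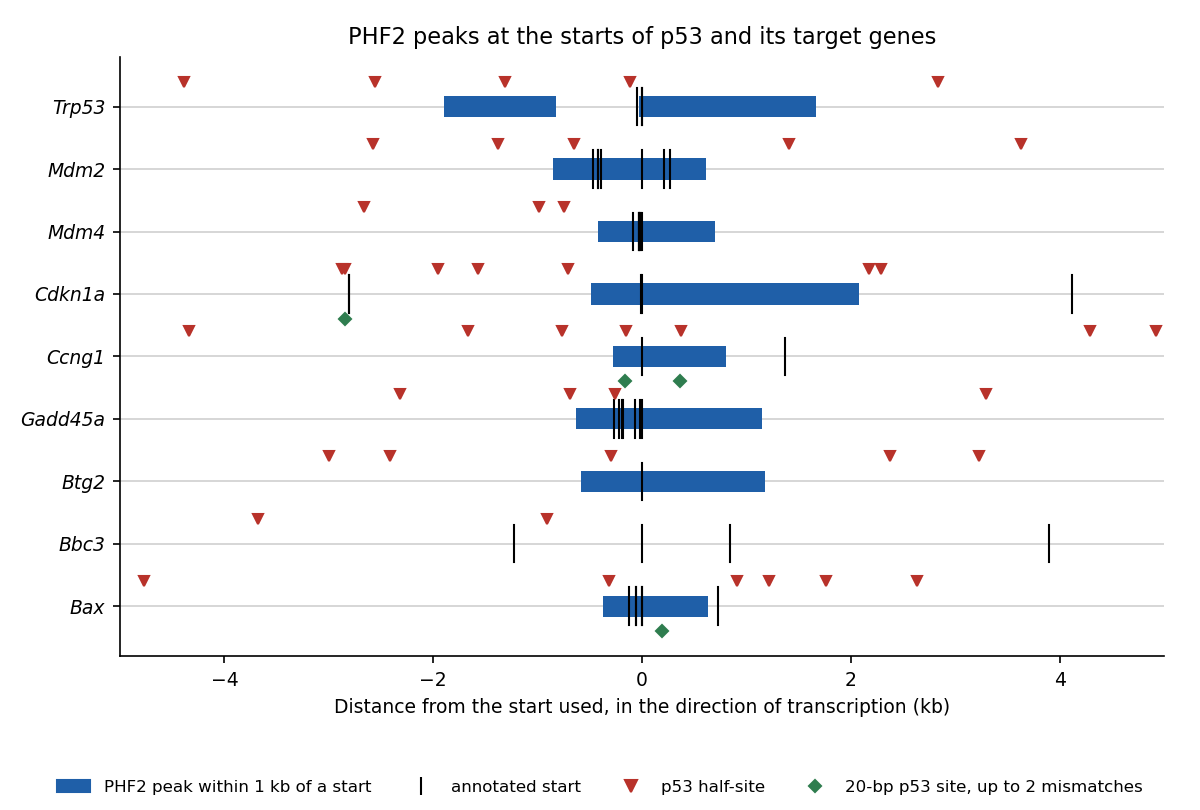
PHF2 peaks (blue bars), annotated transcript starts (black ticks), p53 half-sites (red triangles) and 20-bp p53 sites with at most 2 mismatches (green diamonds) within 5 kb of the start used for each of the 9 genes, with distance in kb in the direction of transcription. The start used is the one nearest to the centre of the highest-scoring peak, and for Bbc3, which has no peak, the second of its starts. The Cdkn1a peak covers 2 of 5 starts and leaves the upstream pair with the 20-bp site uncovered.

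The 4 genes of cell cycle arrest all had a peak, and 3 of them had the highest scores of the set. Cdkn1a, which encodes the cyclin-dependent kinase inhibitor p21, had the highest, 601.31, rank 629 of 5992, above 89.8% of the genes with a peak. Its peak was also the longest of the set, 2561 bp (chromosome 17, 29093296 to 29095856), longer than those of 95.4% of the genes with a peak, and reached 2075 bp downstream of the start at 29093781, so that 89.3% of it was intronic. The peak covered the starts at 29093769 and 29093781. The upstream starts at 29090976 and 29090979 lay 2320 and 2317 bp from the peak, and the start at 29097900 lay 2044 bp from it. The CpG observed/expected ratio was 0.66 and 0.67 at the covered starts, 0.15 at both upstream ones and 0.34 at the downstream one. A start of AC167363.2, a predicted transcript on the opposite strand, lay in the same peak.

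Btg2, which encodes an antiproliferative protein that is also a marker of neural progenitors about to form neurons, had a score of 587.56, rank 663, above 89.2% of the genes with a peak. Its peak of 1763 bp (chromosome 1, 134077941 to 134079703) covered the single annotated start and extended 583 bp upstream and 1179 bp downstream of it. Gadd45a, which encodes a stress protein that binds p21 and PCNA, had a score of 488.26, rank 952, above 84.3% of the genes with a peak. Its peak of 1786 bp (chromosome 6, 67036034 to 67037819) covered all 7 starts and 60.9% of it was exonic, as the gene is short. It also held a start of E230016M11Rik, a noncoding transcript on the opposite strand whose start lies 531 bp from a Gadd45a start. Ccng1, which encodes cyclin G1, a regulator of MDM2 activity, was lower with a score of 183.06, rank 3856, above 34.3% of the genes with a peak. Its peak of 1088 bp (chromosome 11, 40754504 to 40755591) covered the start at 40755311 and ended 566 bp from the second one.

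The 2 apoptosis genes had the lowest score and no peak. Bax, which encodes a pore-forming protein of the mitochondrial membrane, had the lowest score, 123.03, rank 5340 of 5992, above only 10.1% of the genes with a peak. Its peak of 1013 bp (chromosome 7, 45466141 to 45467153) covered 5 of 6 starts, and was also the shortest of the 8. Bbc3, which encodes the BH3-only protein PUMA (chromosome 7, 16308393 to 16318205), had no PHF2 peak at any of its 4 starts or within 20 kb of them. The nearest peak, with a score of 109.74, lay 73.6 kb from a start.

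**Figure D2:**
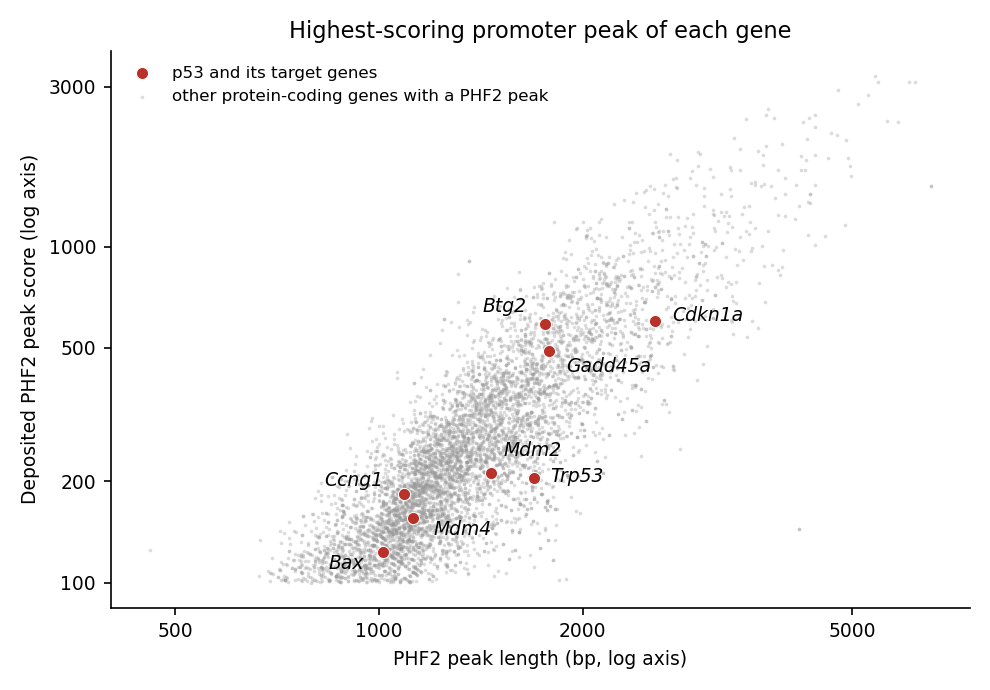
Deposited PHF2 score against peak length for the highest-scoring promoter peak of each gene, both on log axes, with the 8 genes that have a peak in red and all protein-coding genes with a peak in grey. Cdkn1a, Btg2 and Gadd45a lie at scores from 488.26 to 601.31, and the other 5 genes lie between 123.03 and 211.84.

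In 7 of the 8 the peak centre lay downstream of the nearest start, by 128 bp at Bax, 138 bp at Mdm4, 260 bp at Gadd45a, 264 bp at Ccng1, 298 bp at Btg2, 795 bp at Cdkn1a and 823 bp at Trp53. At Mdm2 it lay upstream. Over all genes with a peak the centre was downstream for 68.9%, so 7 of 8 is not far from that share. The median offset was 262 bp downstream for the 8 genes and 104 bp for all genes with a peak. The median length was 1580 bp for the 8 genes and 1322 bp for all genes with a peak. The peaks of Cdkn1a and Trp53 reached farthest into the gene, 2075 and 1670 bp past the start. Trp53 had a long peak for its rank, longer than 76.1% and higher in score than 41.8% of the genes with a peak.

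Bbc3, the one gene without a peak, lay within the range of pooled CpG content of the 8 genes with a peak. With 1 such gene, the part of CpG content was not tested. Pooled over all windows of a gene, the CpG observed/expected ratio was 0.700 at Gadd45a, 0.650 at Mdm2, 0.573 at Btg2, 0.523 at Bbc3, 0.474 at Trp53, 0.443 at Bax, 0.415 at Cdkn1a, 0.407 at Ccng1 and 0.285 at Mdm4. The median was 0.474 for the 9 genes and 0.363 for all protein-coding genes. In their deciles of this ratio, the share of all genes with a PHF2 peak ran from 14.4% for Mdm4 to 63.6% for Gadd45a and Mdm2. Bbc3 was above 5 of the other 8, in decile 8 of all genes, where 49.2% of genes had a PHF2 peak. At its separate starts the ratio was 0.27, 0.68, 0.70 and 0.50 with a GC content of 51.0% to 65.2%, so a CpG-rich start without PHF2 was present at this gene. Mdm4, in decile 4, had a peak where 14.4% of genes had one, but its pooled value mixes a CpG-rich start region with 6 CpG-poor starts.

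**Figure D3:**
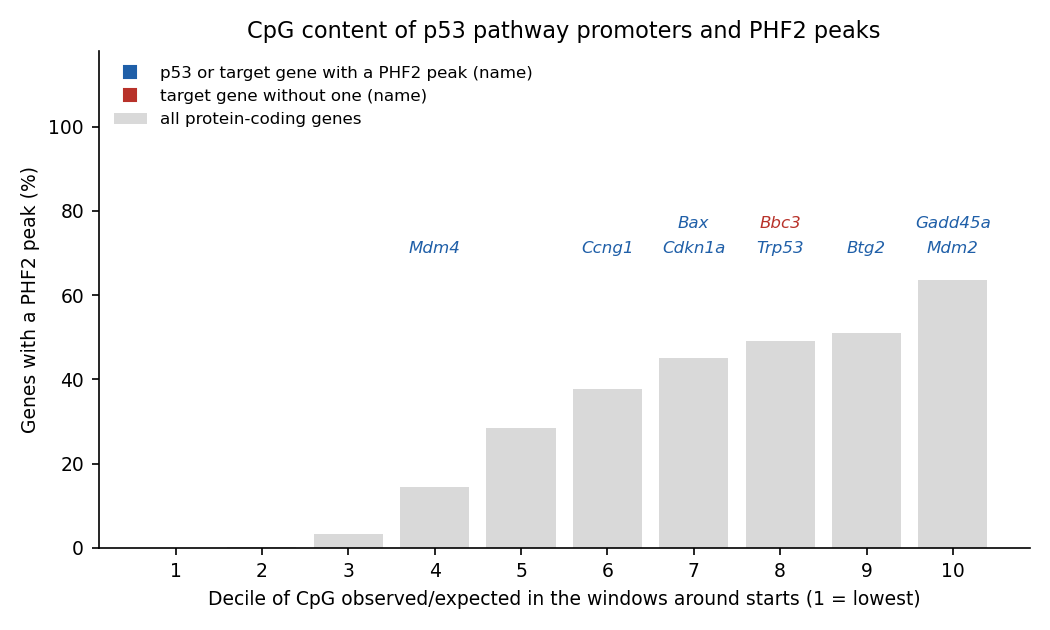
Share of all protein-coding genes with a PHF2 peak (grey bars, in percent) by decile of CpG observed/expected, with the names of the 9 genes placed over their decile at heights that carry no value. The share goes from 0% in decile 1 to 63.6% in decile 10, and Bbc3 (red) sits in decile 8 beside Trp53, which has a peak.

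p53 binding sequences were sought in the peaks because these genes are known for them. The p53 half-site consensus is a run of 10 bases, with purines, then a C, A or T, A or T and a G, then pyrimidines. It reads as its own reverse complement, so both strands were covered by one search. An exact half-site lay in the peak of 5 of the 8 genes, where 30.2% of all PHF2 peaks held one. These genes were partly identified as p53 targets through such sites, so the count describes the set and shows nothing of p53 binding in these cells. The sites in the peaks are printed with 10 bases on either side, in the direction of transcription, which is the minus strand for all 5 genes, and capitals mark the half-site.

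Mdm2, chr10:117710935-117710944: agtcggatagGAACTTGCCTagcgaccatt

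Ccng1, upstream, chr11:40755462-40755471: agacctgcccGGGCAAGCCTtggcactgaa

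Ccng1, downstream, chr11:40754936-40754945: acgcaagcccGGGCTAGTCTgcgcctagag

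Gadd45a, chr6:67037438-67037447: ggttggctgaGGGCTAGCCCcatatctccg

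Btg2, chr1:134079408-134079417: gacgacgtccGGGCATGCCCggtgtagcgc

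Bax, chr7:45467090-45467099: agcatatcccAGGCAAGCTTtgaacttgcg

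The site lay 182 bp upstream of the nearest start at Mdm2, 156 bp upstream and 370 bp downstream at Ccng1, 292 bp upstream at Btg2, 196 bp upstream at Bax, and 14 bp downstream at Gadd45a. The main peaks of Trp53, Mdm4 and Cdkn1a held none, although the second peak near Trp53, at Wrap53, held 1. In all, 73 half-sites lay within 5 kb of the starts of the 9 genes and 7 of them were in a PHF2 peak. Mdm4, with 13 starts, gave 22 of the 73 and none of the 7. The share of the searched sequence that lay in peaks is not given here, so this count is a description. Per kb of sequence, the 8 peaks held 0.480 half-sites and all PHF2 peaks held 0.255. No peak of the 8 held a full site, that is a pair of half-sites with at most 13 bp between them. Of all PHF2 peaks, 0.184% held one, so an absence in 8 peaks differs little from that share. The one full site near the 9 genes lay at Cdkn1a, centred 54 bp upstream of the start at 29090976 and 2359 bp from the peak.

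A longer p53 site, of 20 bases without spacer, was sought in a search added after the other results were seen. With the C and G of both cores kept and at most 2 other mismatches, such a site lay within 1 kb of a start of Cdkn1a, Ccng1, Bax and Mdm4, and 4.40% of all protein-coding genes had one. It was inside the PHF2 peak at Ccng1, which had 2, and at Bax, and outside it at Cdkn1a and Mdm4. Such a site was thus in the peak of 2 of the 8 genes, where 1.25% of all PHF2 peaks held one. As for the half-sites, these genes were partly identified as p53 targets through such sites, so these counts only describe the set. Genes with many starts, such as Mdm4, also had more sequence searched. The sites at Cdkn1a, Ccng1 and Bax are printed in the direction of transcription (plus strand for Cdkn1a, minus for the others) with 5 bases on either side, and capitals mark the 20 bases.

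Cdkn1a, chr17:29090928-29090947, 1 mismatch, outside the PHF2 peak: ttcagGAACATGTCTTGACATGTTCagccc

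Ccng1, chr11:40755462-40755481, 1 mismatch, in the peak: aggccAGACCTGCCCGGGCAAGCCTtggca

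Ccng1, chr11:40754936-40754955, 1 mismatch, in the peak: ccggaACGCAAGCCCGGGCTAGTCTgcgcc

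Bax, chr7:45466574-45466593, 2 mismatches, in the peak: cccccGGGCAGGCCCGGGCTTGTCGctggc

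The Cdkn1a site is centred 38 bp upstream of the uncovered start at 29090976 and lies 2349 bp from the PHF2 peak, in the CpG-poor promoter printed above. At Cdkn1a, then, PHF2 was called over the CpG-rich starts and not over the upstream start that carries the p53 sequence. Whether p53 was bound at any of these sites was not measured.

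H3K9me2 regions were absent from the starts of all 9 genes and rare around them. No gene had a region within 1 kb of a start, where the share of all protein-coding genes was 3.49%, so an absence over 9 genes differs little from that share. Within 20 kb, 1 of the 9 genes had a region, where 38.8% of all protein-coding genes had one. Of the 8 genes with PHF2 at a start it was likewise 1, where the share among all genes with PHF2 was 41.8%. That gene was Cdkn1a. Its region had 73 bp, the minimum length in the list (chromosome 17, 29104515 to 29104587), and lay 6.62 kb downstream of the nearest start, 3788 bp past the end of the gene and 8659 bp from the end of the PHF2 peak. The next nearest region was 24.5 kb from a start at Gadd45a.

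For the other genes the nearest region lay 31.8 kb away at Trp53, 33.3 kb at Ccng1, 56.0 kb at Mdm4, 58.0 kb at Bax, 75.0 kb at Bbc3, 85.1 kb at Mdm2 and 110 kb at Btg2. The median distance was 56.0 kb for the 9 genes and 31.4 kb for all protein-coding genes, and 7 of the 9 genes lay farther than that second median. Bbc3, without PHF2, was farther from H3K9me2 than 6 of the 8 genes with PHF2. The sources used here name no caller for the H3K9me2 list, and 55.6% of its regions had the minimum length, so the lack of a called region does not show that the mark was absent.

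**Figure D4:**
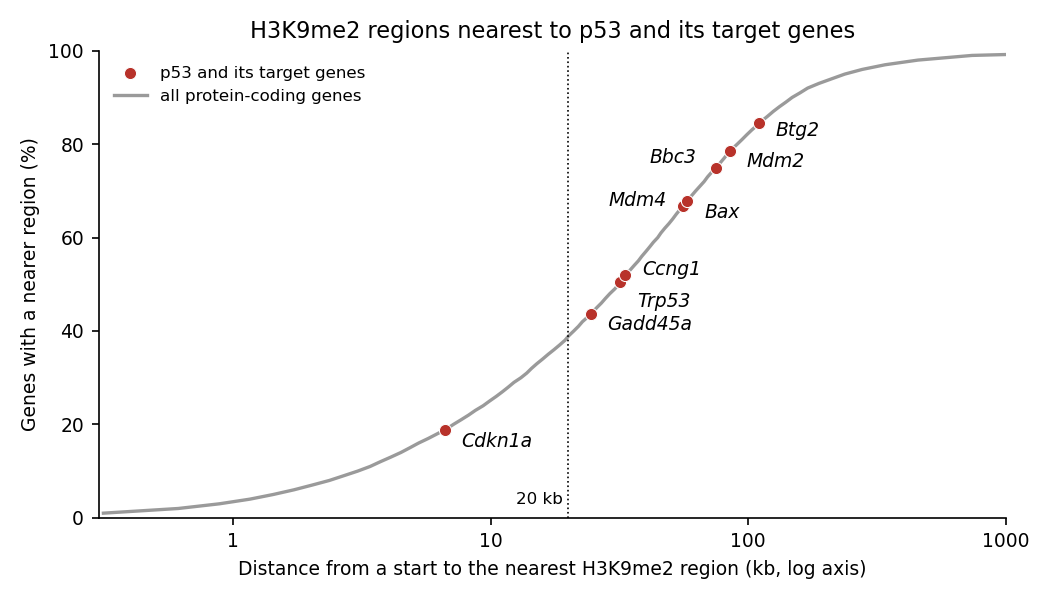
Distance from a start to the nearest H3K9me2 region (kb, log axis) against the percentage of protein-coding genes with a nearer region, with all protein-coding genes as a grey curve and the 9 genes as red points. Cdkn1a, at 6.62 kb, is the one gene left of the 20 kb line, and Btg2, at 110 kb, is the farthest.

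A PHF2 peak lay within 20 kb of a start of 8 of the 9 genes, where the share of all protein-coding genes was 38.8%. These were the same 8 genes that had a peak within 1 kb, so the wider window added none. For 4 of them it took in a peak at a neighbouring gene. Beside its own peaks, Trp53 had the peak at Atp1b2 (score 140.9), Mdm4 that at Pik3c2b (303.06), Ccng1 that at Nudcd2 (112.6) and Bax that at Ftl1 (165.56). The peaks at Pik3c2b and Ftl1 scored higher than those of Mdm4 and Bax. The other genes with a peak, Mdm2, Cdkn1a, Gadd45a and Btg2, had no second PHF2 peak within 20 kb.

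In the wider p53 pathway, PHF2 peaks lay at most regulators and arrest targets. They lay at 6 of 17 apoptosis targets (35.3%), near the 29.3% of all protein-coding genes. Of 75 other genes of the pathway, 46 had a PHF2 peak within 1 kb of a start (61.3%), against 29.3% of all protein-coding genes. Regulators of p53 had 17 of 20, with high scores at Ep300, a p53 acetyltransferase gene (894.71), and at Rpl5 (457.29) and Rpl23 (391.81), ribosomal protein genes whose products bind MDM2. Chek2, Trp53bp1 and Kat5 had no peak. The related factor genes Trp63 and Trp73 had none either.

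Other arrest targets had 11 of 13 genes with a peak and a median score of 394. They were led by Plk2, a stress kinase gene (1528.82), Btg1, the relative of Btg2 (1228.32), Rb1, the retinoblastoma gene (759.21), and Gadd45g, a relative of Gadd45a (521.59). Gadd45b and Sfn had no peak. Other apoptosis targets had 6 of 17, led by Zmat3, an RNA-binding protein gene (625.69), Bcl2 (559.06), Aen, a nuclease gene (293.88), and Bcl2l1 (266.43). Pmaip1, which encodes the BH3-only protein NOXA, the death receptor genes Fas and Tnfrsf10b, and Perp were among the 11 without a peak. Repair and metabolism targets had 12 of 23, led by Trp53i11 (669.07), Sesn2 (455.8), Rps27l (439.6) and Phlda3 (356.32), while Ddb2, Gls2, Dram1 and Fdxr were among the 11 without one.

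With the arrest and apoptosis genes of the set added, 15 of 17 arrest genes (88.2%) and 7 of 19 apoptosis genes (36.8%) had a peak. The share of all protein-coding genes was 29.3%, and the apoptosis count was near it. Both lists are broad. The apoptosis genes include Bcl2 and Bcl2l1, which encode survival proteins, and the arrest genes include Cdc25a, whose product drives the cell cycle. Each of these had a peak. The median CpG observed/expected ratio was 0.573 for the arrest genes and 0.443 for the apoptosis genes, and the part of CpG content in the counts was not tested. The regulators had a median of 0.450 with 17 of 20 genes marked, and the repair and metabolism targets 0.464 with 12 of 23. Of all protein-coding genes, the share with a peak went from 45.0% in decile 7 of CpG content to 63.6% in decile 10. Genes without a peak are thus common in these deciles. Of the 12 apoptosis genes without a peak, 6 were in decile 7 of CpG content or higher, Bbc3, Pmaip1 (0.778) and Perp (0.603) among them. In the arrest group 1 of 2 was, Gadd45b (0.612). Of the repair and metabolism targets without a peak it was 5 of 11, and of the regulators 0 of 3. The share over all genes without a peak is not given here, so these counts only describe the lists.

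Related genes differed in score. Btg1 had a score of 1228.32 and Btg2 587.56. Gadd45g (521.59) and Gadd45a (488.26) were close while Gadd45b had no peak. Ccng2 (230.47) was above Ccng1 (183.06), Mdm2 above Mdm4, and Bak1, the relative of Bax, had no peak, where Bax had a low one.

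H3K9me2 lay at 1 start region of the wider pathway. Of the 75 other genes, 1 had a region within 1 kb of a start, where the share of all protein-coding genes was 3.49%. This gene was Bcl2l1, which encodes the survival protein BCL-XL. The region had 73 bp (chromosome 2, 152828051 to 152828123), was centred 448 bp from a start of a transcript without a coding annotation, and lay 2034 bp from the PHF2 peak of the gene. Within 20 kb, 28 of the 75 genes had a region (37.3%), near the 38.8% of all protein-coding genes.

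**Figure D5:**
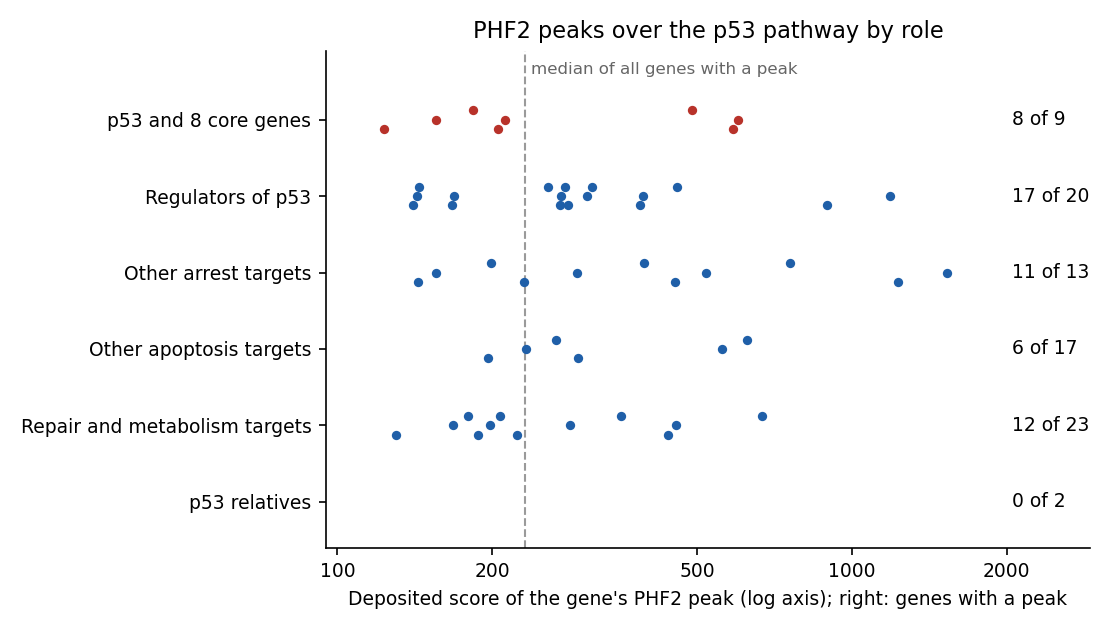
Deposited PHF2 scores (log axis) of the highest-scoring promoter peak for the 9 genes (red, top row) and 5 lists of other p53 pathway genes (blue), 1 point per gene with a peak, with the number of genes with a peak at the right. The dashed line is the median of all genes with a peak, 231, and the 2 genes of the bottom row had none.

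Genes most like each of the 8 in their PHF2 peak were taken as those with the smallest sum of absolute log2 ratios of score and length, among genes in the same state for H3K9me2 within 20 kb, over the 2 ChIP samples. The values describe likeness of the peaks alone. For Cdkn1a this was Ddhd1 (score 607.44, 2481 bp, sum 0.0604), for Btg2 Hist1h1b (583.4, 1765 bp, 0.0119) and for Gadd45a Mob1b (483.77, 1778 bp, 0.0198). For Trp53 it was Atp5j (208.45, 1687 bp, 0.0303), for Mdm2 Ggnbp1 (213.49, 1459 bp, 0.0181) and for Mdm4 Cenpt (155.61, 1130 bp, 0.0129). For Ccng1 it was Spag7 (182.95, 1089 bp, 0.0022) and for Bax Tor1b (123.37, 1018 bp, 0.0111). None of these 8 is in the p53 pathway lists. The lists of other pathway genes held only 46 of the 6374 genes with a peak, so this absence says nothing about the peaks.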

How the data were processed

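ChIP-seq of PHF2 and of H3K9me2, each 1 sample with 1 input, gave 1 peak list per antibody. The authors deposited PHF2 peaks with a score each, and per the file headers the caller was MACS, run in Galaxy, and they deposited H3K9me2 regions whose score is 0 throughout. Bowtie2 and mm10 are listed in the submitters' processing notes. Caller settings are not given in the sources used here; inputs were not analysed here. On chromosomes 1 to 19 and X, 5992 peaks and 36111 of 36171 regions were used.

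Overlap of 1 bp or more with windows of 1 kb or 20 kb around every GENCODE M21 transcript start was counted with Python 3.11.15, and the routines were tested on simulated data. Positions are 1-based, on mm10. CpG observed/expected was pooled over a gene's windows. Sequences and site searches used GRCm38.p6 from RefSeq, whose promoters matched all 9 genes by symbol.

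The genes, lists and tests were chosen with earlier results of these data known. Named were all 9 genes, up to 4 genes of each list with the highest scores and up to 4 without a peak, every listed gene with an H3K9me2 region within 1 kb, genes sharing a peak, and the most similar gene. A gene that this rule would name is not reported here. Genes named beyond that rule (Ccng2, Bak1, Cdc25a, and neighbours with a peak within 20 kb) were picked for their roles after their values were seen. The 20-base site search was added later too. Alternatives were other windows, starts, overlaps, thresholds and site definitions.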

Additional observations from a re-analysis of the deposited data

How the results depend on the processing

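The count of 8 of 9 genes with PHF2 was 6 to 8 under all other windows, starts and overlaps tried, with 6 for the 5'-most start alone, where Cdkn1a and Mdm4 were lost. It was 3 among the higher-scoring 50% of peaks and 0 among the highest-scoring 10%, where all protein-coding genes had 14.9% and 2.84%. Within 20 kb the same thresholds gave 4 and 0, where all genes had 20.0% and 3.61%. For the 75 other pathway genes they gave 30 and 7 in place of 46. The 0 genes with H3K9me2 within 1 kb stayed 0 in every alternative tried, where all genes had 1.46% to 15.3%. With 9 genes, an absence differs little from most of these shares. Within 20 kb, the 1 gene became 0 with regions longer than the minimum, where all genes had 20.9%. It became 4 with windows of 50 kb and 8 with windows of 100 kb, where all genes had 63.4% and 82.3%. The window of 100 kb was chosen after seeing the data. The 1 other pathway gene with H3K9me2 within 1 kb became 5 at 2 kb and 14 at 5 kb. All genes had 6.93% and 15.3% there. The count was 0 with the 5'-most start, with starts of protein-coding transcripts or with longer regions, where all genes had 1.46%, 2.29% and 1.46%. The 5 of 8 peaks with a half-site became 8 with 1 mismatch allowed (93.1% of all PHF2 peaks), 1 in the central 500 bp (9.40%), 0 for a full site and 2 for the 20-base site (1.25%), also chosen after seeing the data. Wider windows and looser motifs take in more by construction. Read depth is unknown, which limits what an absent peak shows. Leaving out a replicate was not possible. No paired analysis was possible because each group has 1 sample and no test was made.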
